A study of Mus musculus with 6 samples.

Results

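The transcriptional coactivators YAP and TAZ, encoded by *Yap1* and *Wwtr1*, were examined together with the CCN family genes *Ccn1* to *Ccn5* and with *Ankrd1*, *Amotl2* and *Lats2*. *Ccn1* and *Ccn2* belong to the CCN family and, like the last 3, are standard YAP/TAZ target or feedback genes. The 10 genes were chosen by name, all 10 were found under those symbols among the 17001 rows of the expression table, and all 10 passed the filter on low values. Calvarial preosteoblasts, which precede the osteoblasts that form bone, were released by sequential digestion from mouse pups aged 3 days and cultured in α-MEM with 10% FBS, and their RNA was sequenced in 3 control libraries (NELL2 fx/fx) and 3 cKO libraries (Col1-cre; NELL2 fx/fx). Both groups carry the floxed *Nell2* alleles, and the cKO group also carries Cre recombinase driven by a *Col1a1* promoter fragment, so that deletion is limited to cells in which that promoter has been active. The comparison asks how deletion of *Nell2* alters gene expression in these cells. The labels do not say whether each library came from separate pups or cultures, so p-values measure the spread between these libraries, which may be partly technical.

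YAP and TAZ carry no DNA-binding domain of their own and act on genes through TEAD transcription factors. The Hippo kinases LATS1 and LATS2 phosphorylate them and keep them in the cytoplasm, whereas stiff matrix, cell spreading and actin tension favour their entry into the nucleus. CCN proteins are secreted matricellular proteins that bind integrins and heparan sulfate, and in the osteoblast lineage several of them are known to act on proliferation, matrix production and WNT or BMP signaling.

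The promoter sequences of the set were read from RefSeq on GRCm38.p6, in windows of 300 bases that begin 250 bases before an annotated start site and end 50 bases after it. Windows were looked up by the current gene symbols only, and older symbols of the CCN genes were not searched. They were found for 6 of the 10 genes, namely *Ccn1*, *Ankrd1*, *Amotl2*, *Lats2*, *Yap1* and *Wwtr1*, with 2 start sites each for *Lats2* and *Wwtr1*. The windows of 4 target genes are printed 5′ to 3′ on the strand of the gene because they carry the letters that TEAD factors are known to bind, and capitals mark GGAATG or its reverse complement CATTCC.
*Ccn1*, chr3:145649936-145650235, minus strand: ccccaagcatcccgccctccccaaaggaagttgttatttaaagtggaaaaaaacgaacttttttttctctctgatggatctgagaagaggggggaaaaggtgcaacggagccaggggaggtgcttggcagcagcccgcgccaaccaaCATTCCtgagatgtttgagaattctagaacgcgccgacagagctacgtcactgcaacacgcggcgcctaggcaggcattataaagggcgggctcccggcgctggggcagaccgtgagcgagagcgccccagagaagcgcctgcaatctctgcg
*Ankrd1*, chr19:36119795-36120094, minus strand: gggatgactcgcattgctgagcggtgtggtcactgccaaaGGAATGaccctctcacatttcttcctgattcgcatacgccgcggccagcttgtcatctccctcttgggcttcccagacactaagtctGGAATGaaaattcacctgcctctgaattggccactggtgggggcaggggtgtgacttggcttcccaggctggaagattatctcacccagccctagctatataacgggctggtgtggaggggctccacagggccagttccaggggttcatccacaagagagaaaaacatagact
*Amotl2*, chr9:102717554-102717853, plus strand: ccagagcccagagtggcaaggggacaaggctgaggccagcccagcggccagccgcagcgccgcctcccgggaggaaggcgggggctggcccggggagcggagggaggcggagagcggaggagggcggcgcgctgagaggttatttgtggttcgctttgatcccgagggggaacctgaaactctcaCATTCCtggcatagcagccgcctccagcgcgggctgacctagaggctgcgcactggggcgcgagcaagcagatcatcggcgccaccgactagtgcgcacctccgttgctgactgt
*Lats2*, chr14:57746074-57746373, minus strand: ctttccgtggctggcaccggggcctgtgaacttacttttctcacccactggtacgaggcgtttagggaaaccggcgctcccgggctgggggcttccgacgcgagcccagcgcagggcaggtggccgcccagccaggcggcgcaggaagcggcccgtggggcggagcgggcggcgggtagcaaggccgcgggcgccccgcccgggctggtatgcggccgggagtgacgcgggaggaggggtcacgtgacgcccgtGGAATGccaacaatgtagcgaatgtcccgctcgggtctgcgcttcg

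GGAATG, searched on both strands, was present in the window of all 6 genes and in 7 of their 8 windows. Of all 32851 RefSeq promoter windows of this length, 14.7% held it, and 1.36% held it more than once. Counted by gene, 16.6% held it in any of their windows. *Ankrd1* held 2 copies, with first bases at positions -210 and -123 from the start site. The copy of *Ccn1* began at position -103 and that of *Amotl2* at -65, both on the opposite strand. In *Lats2* the copy began at base 5 after the upstream start, and the window at the other start, chr14:57734369-57734668, held none. *Yap1* held 1 copy at -141, and the 2 overlapping windows of *Wwtr1* share a single copy. *Ccn1* also held TATAAA at -25, which 13.6% of all windows held in either orientation. The AP-1 motif TGANTCA was found in 0 of the 8 windows and in 7.8% of all windows, and the CArG box bound by SRF in 0 of the 8 and in 1.6% of all. A match describes letters in these windows and was not tested as a binding site.

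**Figure D1:**
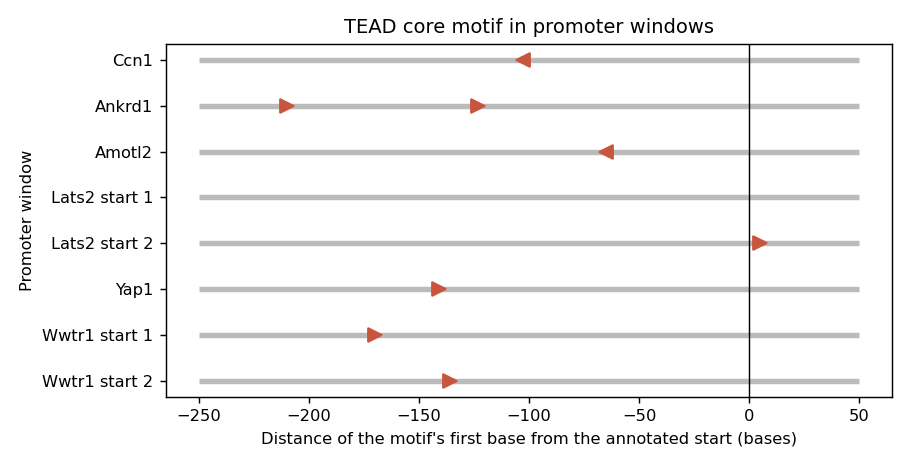
Position of the TEAD core motif in the 8 promoter windows of 6 genes, as the distance of its first base from the annotated start in bases (x axis). Each grey line is 1 window, a triangle pointing right is the motif on the strand of the gene and one pointing left is the motif on the opposite strand. *Ankrd1* has 2 copies and the first *Lats2* window has none.

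On GRCm38 with the GENCODE M21 annotation, the CCN genes lie at chr3:145646976-145649981 (*Ccn1*), chr10:24595442-24598683 (*Ccn2*), chr15:54745702-54754039 (*Ccn3*), chr15:66891320-66923201 (*Ccn4*) and chr2:163820861-163833146 (*Ccn5*). *Ankrd1* lies at chr19:36111961-36120099, *Amotl2* at chr9:102716672-102733418 and *Lats2* at chr14:57689662-57758388. *Yap1* lies at chr9:7931999-8004596 and *Wwtr1* at chr3:57455649-57575910. Exons of *Lats2* share 2955 bases with *Gm49361* on the same strand, and exons of *Ccn2* and *Yap1* share 665 and 116 bases with *Gm15270* and *Gm20416* on the opposite strand. Reads from the shared bases of *Lats2* cannot be assigned by strand, and for *Ccn2* and *Yap1* it is not stated whether the counting used strand, so the levels of these 3 genes are uncertain to that extent.

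The expression values were FPKM (fragment counts divided by transcript length and by the total of the library), a unit corrected for length that allows levels to be compared between genes. They do not carry read numbers, so the depth of the libraries is unknown, and FPKM summed to between 573307 and 606428 per library. *Nell2*, the targeted gene, was at 3.17, 2.59 and 1.88 FPKM in control replicates 1, 2 and 3 and 5.64, 1.61 and 5.74 in cKO replicates 1, 2 and 3. Its mean was higher, not lower, under the cKO label (limma adjusted p = 0.591), and every direction given here follows the labels. The study reported that it checked the deletion in calvarial preosteoblasts by qRT-PCR and western blotting. The FPKM are given per gene and do not separate the exons of *Nell2*, so they are not a measure of the deleted part. *Col1a1* was between 8052.61 and 8578.05 FPKM in every library, while the summed level of 6 endothelial markers was between 1.94 and 4.06. Some osteoblast, cartilage and epithelial markers had an unadjusted p-value under 0.05, although none passed adjustment. Of the tested macrophage, endothelial and muscle markers, 0 had one. Of 9 osteoblast markers, 4 had an unadjusted p-value under 0.05 and a lower level in cKO without overlap, namely *Sp7* (log2 difference -0.48), *Alpl* (-0.45), *Bglap* (-1.15) and *Ibsp* (-1.27), and 1 had a higher level, *Postn* (0.46). All 5 tested cartilage markers had a positive difference, 3 of them with an unadjusted p-value under 0.05, with a median of 0.45. Of all tested rows, 7.76% were lower and 5.37% higher in cKO at that p-value. Without overlap were 11.8% with cKO below and 6.51% with cKO above. The summed level of all 6 epithelial markers, whether or not they passed the filter, was 0.46 to 13.39 FPKM in control and 18.17 to 42.72 in cKO libraries. The part of these marker lists in the results was not tested. Only cKO replicate 1 correlated more closely across genes with the other group (mean r = 0.992) than with its own (mean r = 0.989). Its closest library was control replicate 3. The likeness was mutual, since the closest library of control replicate 3 was cKO replicate 1. Control replicate 3 had a mean r of 0.9911 with the other controls and 0.9907 with the cKO libraries. The Y-linked gene *Ddx3y* was at 15.65 to 17.33 FPKM in control replicate 3 and cKO replicates 1 and 3 and at 0 to 0.06 FPKM in the others.

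The highest mean levels of the set were those of *Ccn1*, *Ccn2*, *Ccn5* and *Ccn3*, in that order. *Ccn1*, which encodes the angiogenic and adhesive protein also called CYR61, was at 207.48, 220.93 and 190.34 FPKM in control replicates 1, 2 and 3. In cKO replicates 1, 2 and 3 it was at 211.86, 229.45 and 225.99. The groups overlapped, its 6 values lay within 1.21-fold of each other, and its mean level was above that of 97.7% of all rows. *Ccn2*, also called connective tissue growth factor and the most widely used readout of YAP/TAZ activity, was at 147.74, 143.67 and 119.62 FPKM in control and 140.93, 175.57 and 149.62 FPKM in cKO libraries. Control replicate 3 had the lowest and cKO replicate 2 the highest level, and the groups overlapped through cKO replicate 1.

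*Ccn5* encodes a CCN protein that lacks the C-terminal cystine-knot domain of the other family members. Its level was 100.55, 128.52 and 83.69 FPKM in control and 118.99, 134.93 and 79.75 FPKM in cKO libraries. In both groups replicate 2 was highest and replicate 3 lowest, and the groups overlapped. *Ccn3*, also called NOV and known to antagonize BMP signaling in osteoblasts, was at 72.13, 36.17 and 107.6 FPKM in control libraries. In cKO libraries it was at 52.35, 127.28 and 108.93. The groups overlapped, and it spanned 3.52-fold over the 6 libraries, the widest range of the 10 genes. *Ccn4*, also called WISP1 and a WNT target of the osteoblast lineage, was at 48.11, 49.3 and 48.8 FPKM in control and 52.73, 46.64 and 57.77 FPKM in cKO libraries. The control values of *Ccn4* were nearly equal, and the cKO values lay on both sides of them. *Ccn6*, the family member outside the set, was at 0.05 to 0.28 FPKM and was not tested.

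The coactivators and the other effectors were at levels near or below that of *Ccn4*. *Amotl2*, an angiomotin that binds YAP and is itself a YAP target, was at 57.58, 52.52 and 54.45 FPKM in control and 58.78, 61.33 and 51.77 FPKM in cKO libraries, with overlapping groups. *Yap1* was at 40.93, 48.28 and 46.99 FPKM in control and 47.95, 41.51 and 41.06 FPKM in cKO libraries. *Wwtr1* was at 29.71, 32.82 and 32.47 FPKM in control and 30.41, 33.88 and 34.91 FPKM in cKO libraries. The groups overlapped for both coactivators. *Yap1* exceeded *Wwtr1* in all 6 libraries, by a ratio of 1.43 ± 0.05 (SD, n = 3) in control and 1.33 ± 0.22 (SD, n = 3) in cKO libraries, and the ratio did not differ beyond its spread (p = 0.4, two-sided exact permutation test, for which 0.1 is the smallest p that 3 libraries against 3 allow).

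*Lats2*, the Hippo kinase gene that YAP induces in a negative feedback, varied least of the 10. Its level was 21.18, 20.84 and 20.76 FPKM in control and 20.43, 21.01 and 19.3 FPKM in cKO libraries. Only 6.57% of tested genes had a smaller standard deviation within groups on the log2 scale. *Ankrd1*, a muscle-enriched ankyrin repeat protein and mechanosensitive YAP target, had the lowest level. It was at 15.13, 16.92 and 13.78 FPKM in control and 19.52, 11.71 and 10.38 FPKM in cKO libraries, with cKO replicate 1 above and the other cKO libraries below every control.

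Ordered by mean level, the genes ran *Ccn1*, *Ccn2*, *Ccn5*, *Ccn3*, *Amotl2*, *Ccn4*, *Yap1*, *Wwtr1*, *Lats2* and *Ankrd1*. Neighbours in this order were separated over all 6 libraries only between *Ccn1* and *Ccn2*, between *Yap1* and *Wwtr1*, and between *Wwtr1* and *Lats2*. In the remaining 6 pairs of neighbours the ranges overlapped, although *Ccn2* exceeded *Ccn5*, *Ccn4* exceeded *Yap1* and *Lats2* exceeded *Ankrd1* within each of the 6 libraries.

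**Figure D2:**
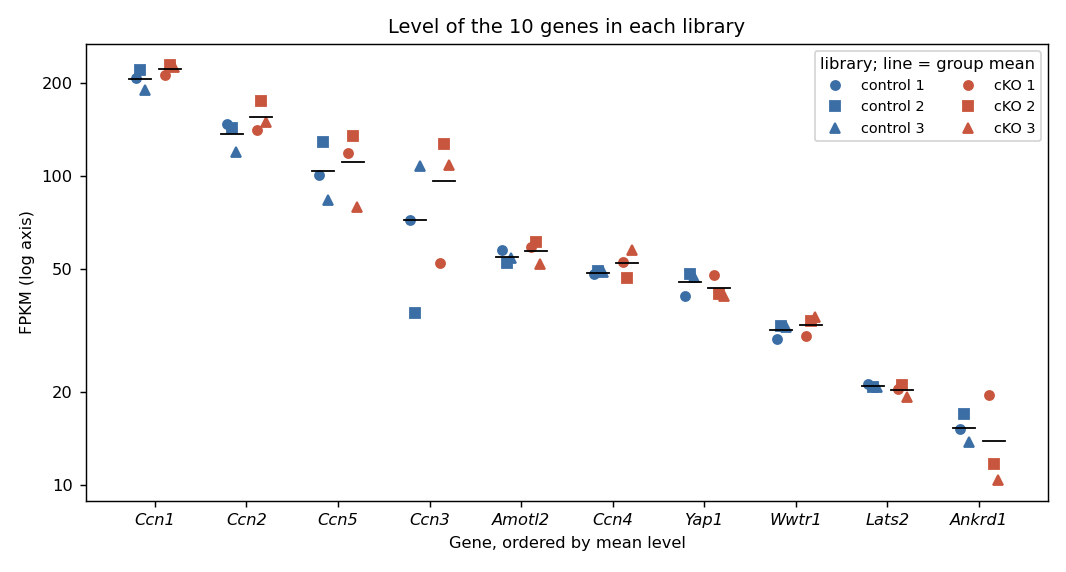
FPKM of the 10 genes in each library on a log axis, ordered by mean level; blue symbols are control and red symbols cKO libraries, the symbol shape gives the replicate number and the black line the group mean. *Ccn1* lies between 190.34 and 229.45 in all 6 libraries, *Lats2* between 19.3 and 21.18, and *Ccn3* spans 36.17 to 127.28.

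None of the 10 genes passed the test between the groups. The values were compared as log2(FPKM + 1) with limma's moderated test over the 11590 rows that reached an FPKM of 1 in 3 or more libraries, and differences are cKO minus control on that scale. Of these rows, 0 (0%) had an adjusted p-value under 0.05 and 1521 (13.1%) an unadjusted one under 0.05. Among the 10 genes both counts were 0. Control and cKO values did not overlap in 0 of the 10 genes, against 18.3% of all tested rows. Of the 10, 7 had a positive and 3 a negative difference, with a median of 0.07, beside a median of -0.02 and 44.2% positive over all tested rows. Their median absolute difference, 0.09, was the same to 2 decimals as that of all tested rows.

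Among the CCN genes, the mean level of *Ccn1* was 206.2 ± 15.3 FPKM in control and 222.4 ± 9.32 FPKM in cKO libraries (SD, n = 3 each), a log2 fold change of 0.11 (standard error, SE, 0.08, 95% interval -0.07 to 0.29, adjusted p = 0.552). *Ccn2* averaged 137 ± 15.2 FPKM in control and 155.4 ± 18.0 FPKM in cKO libraries, a log2 fold change of 0.18 (SE 0.11, 95% interval -0.09 to 0.45, adjusted p = 0.521). The difference of *Ccn3* was the largest of the set at 0.45, but its standard error of 0.46 exceeded it (95% interval -0.64 to 1.54, adjusted p = 0.683), and it was 0.03 without control replicate 2, below those of *Ccn1*, *Ccn2*, *Ccn4*, *Ccn5* and *Wwtr1*. For *Ccn4* and *Ccn5* the log2 fold changes were 0.10 and 0.08, with adjusted p-values of 0.64 and 0.9, and that of *Ccn5* was -0.07 when either control replicate 3 or cKO replicate 2 was left out.

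Of the YAP/TAZ pair and the other effectors, *Ankrd1* had the most negative difference, -0.18 (SE 0.21, 95% interval -0.68 to 0.33, adjusted p = 0.738). *Yap1* had a difference of -0.06 (95% interval -0.28 to 0.16) and *Wwtr1* one of 0.06 (95% interval -0.12 to 0.24). *Amotl2* differed by 0.06 and *Lats2* by -0.05, and the interval of *Lats2* corresponded to cKO levels between 0.878 and 1.07 times control. The 95% interval stayed within a 1.5-fold change in either direction for 7 of the 10 genes. Those of *Ccn3*, *Ccn5* and *Ankrd1* reached beyond 1.5-fold, and that of *Ccn3* beyond 2-fold. The exact permutation test over libraries gave two-sided p-values of 0.2 or more for each of the 10 genes.

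**Figure D3:**
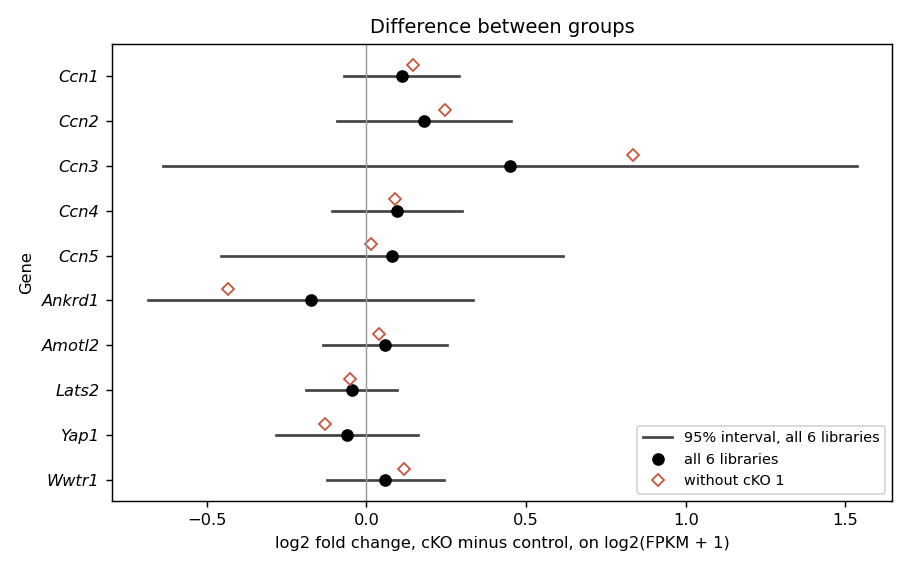
Difference between cKO and control for the 10 genes as log2 fold change on the log2(FPKM + 1) scale; black points and lines are the limma estimate and 95% interval from 6 libraries, and open red diamonds the estimate without cKO replicate 1, a library singled out for its likeness to the controls. Every interval covers 0, from the narrow one of *Lats2* (-0.19 to 0.10) to that of *Ccn3* (-0.64 to 1.54).

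The comparison was also read without cKO replicate 1, which leaves 2 cKO libraries against 3 controls. This library was singled out because it resembled the controls, so larger differences and more separated groups follow from the choice itself, and the values are a description only. Across the table, 324 of the 11590 rows then had an adjusted p-value under 0.05, and 0 of the 10 genes were among them. The closest was *Ankrd1*, at -0.43 (SE 0.10, limma adjusted p = 0.0946), against -0.18 with all 6 libraries and -0.0068 without cKO replicate 3 (adjusted p = 0.997). Without cKO replicate 1, *Ccn3* stood at a log2 fold change of 0.83 (SE 0.42, adjusted p = 0.306), *Ccn2* at 0.25 (adjusted p = 0.299) and *Ccn1* at 0.14 (adjusted p = 0.363). The groups then did not overlap in 5 of the 10 genes, with *Ccn1*, *Ccn2*, *Ccn3* and *Wwtr1* higher and *Ankrd1* lower in cKO. Such a separation also held for 42% of all tested rows, 17.7% higher and 24.3% lower in cKO.

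Of the 45 pairs of genes, none had a correlation over the 6 libraries that passed adjustment. *Ccn1* and *Ccn2* moved in the same direction, with the lowest level of each in control replicate 3 and the highest in cKO replicate 2 (Pearson r = 0.87, exact permutation p = 0.0181; Spearman rho = 0.83, exact p = 0.0583). After Benjamini-Hochberg adjustment over the 45 pairs of genes these became 0.406 and 0.836. The relation rested on those 2 libraries, since r was 0.31 without them. *Ccn3* and *Ankrd1* ran in opposite directions (r = -0.83, exact permutation p = 0.0486; rho = -0.89, exact p = 0.0333), with adjusted values of 0.729 and 0.75 and r = -0.72 without the 2 libraries farthest from the median of *Ccn3*. *Ccn4* and *Lats2* were also opposed (r = -0.96, exact permutation p = 0.00972; rho = -0.89, exact p = 0.0333; adjusted 0.406 and 0.75), with r = -0.54 without the 2 farthest libraries. Within groups, with each group centred on its own mean, the 3 coefficients were 0.81, -0.81 and -0.95. These pairs were picked for their size after the 45 values were seen.

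**Figure D4:**
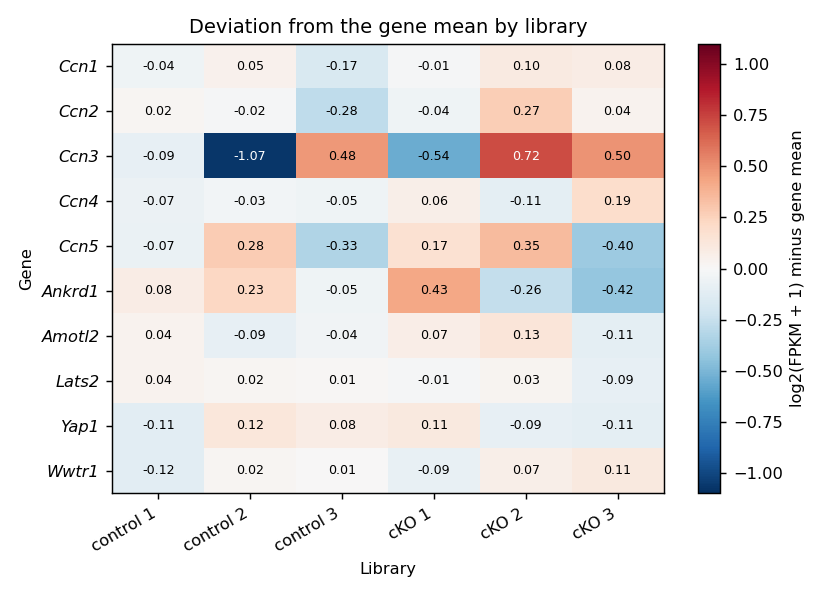
Deviation of each gene from its own mean in each library, in units of log2(FPKM + 1); red is above and blue below the mean, and the number in each cell is the value. *Ccn3* runs from -1.07 in control replicate 2 to 0.72 in cKO replicate 2, while all values of *Lats2* lie between -0.09 and 0.04.

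The spread of *Ccn3* was extreme for the table, since 99.5% of tested genes had a smaller standard deviation within groups. The corresponding shares were 95.8% for *Ccn5* and 95.2% for *Ankrd1*, against 38.2% for *Ccn1* and 40.2% for *Wwtr1*. *Ccn3* was lowest in control replicates 1 and 2 and cKO replicate 1. The summed level of 7 macrophage markers was lowest in the same 3 libraries, at 58.52, 33.18 and 45.04 FPKM against 66.97 to 90.29 elsewhere. So was that of 7 muscle markers, at 49.7, 41.87 and 55.87 FPKM against 60.3 to 85.7. That of 6 endothelial markers was lowest there too, at 1.97, 2.37 and 1.94 FPKM against 3.49 to 4.06. The osteoblast, cartilage and epithelial sums did not follow this split. The osteoblast and cartilage sums were lowest in control replicate 3, at 18375.75 and 99.22 FPKM. The epithelial sum was highest in cKO replicate 1, at 42.72 FPKM. The lists set beside *Ccn3* were picked with these values known. Much of the macrophage sum was *Lyz2*, at 26.61 to 74.99 FPKM, and single markers did not all follow. *Myog* was at 3.13 FPKM in control replicate 1 and 2.76 in cKO replicate 2, and *Csf1r* at 1.22 and 0.9. Of the defining markers, *Ptprc* was at 0.07 to 0.18 FPKM and *Myod1* at 0.5 to 1.1 FPKM. *Myod1* was lowest, at 0.5 FPKM, in control replicate 2 and cKO replicate 3. The part of these markers in the level of *Ccn3* was not tested. In bulk RNA fewer cells of a type and less RNA per cell cannot be told apart.

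For likeness of pattern, *Ccn2* was set against the 11580 other tested genes outside the set. The 3 with the highest Pearson r to *Ccn2* over the 6 libraries were *Clic4* (r = 0.98), *Lgals7* (r = 0.98) and *Klhdc8a* (r = 0.97), and 55 genes, or 0.475%, had an r above 0.9. *Klhdc8a* was at 11.89, 11.6 and 9.14 FPKM in control and 11.77, 16.83 and 11.79 FPKM in cKO libraries, with the same lowest and highest library as *Ccn2*. With 6 points and so many genes, coefficients of this size are a description only.

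Upstream of the coactivators, the Hippo kinase cassette and its activators showed small differences. All 14 genes of this list were tested, 6 were higher and 8 lower in cKO, 0 had an unadjusted p-value under 0.05, and the median log2 fold change was -0.02 as deposited and 0.01 with upper-quartile scaling. *Wwc1*, the scaffold KIBRA that activates LATS kinases, had the largest difference at 0.16 (SE 0.17, adjusted p = 0.694), from a level of 1.26 to 2.49 FPKM. *Mob1b*, a coactivator of LATS, had a difference of 0.13 and *Taok1*, a kinase upstream of the cassette, one of -0.12, with limma adjusted p-values of 0.586 and 0.472. The groups did not overlap in 2 of the 14 genes, *Taok1* and *Taok2*, both with cKO below. Over all tested rows, 11.8% separated in that direction and 18.3% in either.

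Of the TEAD factors and their VGLL cofactors, *Tead2* was the most abundant TEAD gene at 34.66 to 42.53 FPKM. *Tead1* was at 12.15 to 14.7 FPKM, *Tead3* at 14.7 to 17.01 FPKM and *Tead4* at 0.64 to 0.94 FPKM. *Tead2* was at 40.23, 42.2 and 42.53 FPKM in control and 39.93, 38.12 and 34.66 FPKM in cKO libraries, so that all cKO values were below all controls, a log2 fold change of -0.15 (SE 0.07, adjusted p = 0.427). Groups that separated with cKO below made up 11.8% of tested rows. *Tead1* had a difference of -0.11 (adjusted p = 0.515) and *Vgll3*, a cofactor that competes for TEAD, one of -0.11 (adjusted p = 0.613). Of the list, 5 genes were tested, 2 higher and 3 lower, with a median of -0.11 (0.0551 without the filter on low values) and 0 with an unadjusted p-value under 0.05, and *Vgll1* was not analysed here.

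Junction, LIM and cadherin proteins that regulate YAP and TAZ gave 8 tested genes, of which 3 were higher and 5 lower, with a median log2 fold change of -0.03. *Amot*, the founding angiomotin and a paralog of *Amotl2*, was at 12.84, 12.48 and 10.94 FPKM in control and 11.49, 9.26 and 8.21 FPKM in cKO libraries. Its log2 fold change of -0.31 (SE 0.12, adjusted p = 0.367) was the only one of the list with an unadjusted p-value under 0.05, against 7.76% of all tested rows in that direction. *Amotl1*, the remaining angiomotin, was at 10.18 to 10.7 FPKM in control and 11.03 to 12.23 FPKM in cKO libraries, a difference of 0.12 (adjusted p = 0.456) with groups that did not overlap, as in 6.51% of tested rows with cKO above. *Wtip*, an Ajuba-family LIM protein, had a difference of 0.12 (adjusted p = 0.697).

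The other 17 genes of a published YAP/TAZ target signature were divided in direction. Of the 16 tested, 10 were higher and 6 lower, with a median log2 fold change of 0.02. Adjusted p-values under 0.05 numbered 0, and 3 genes, all higher in cKO, had an unadjusted p-value under 0.05, against 5.37% of all tested rows in that direction. *Gadd45a*, a growth-arrest gene that p53 and the stress factor ATF4 also induce, was at 29.69, 35.92 and 31.43 FPKM in control and 46.47, 63.41 and 61.07 FPKM in cKO libraries. Every cKO library exceeded every control, with a log2 fold change of 0.79 (SE 0.13, adjusted p = 0.312). *Nuak2*, a kinase that promotes actomyosin tension, was at 1.75, 2.59 and 2.71 FPKM in control and 2.9, 4.99 and 3.91 FPKM in cKO libraries, a difference of 0.55 (SE 0.18, adjusted p = 0.315) without overlap. *Igfbp3*, an IGF-binding protein, had a difference of 0.36 (SE 0.25, adjusted p = 0.556) and overlapping groups. The third gene under that p-value was *Nt5e*, named after its value was seen, with a difference of 0.36 (adjusted p = 0.379). Groups did not overlap in 4 genes of the list. These were *Gadd45a*, *Nuak2* and *Myof* with cKO above and *Arhgef17* (12.17 to 13.11 FPKM in control against 10.94 to 11.95) with cKO below. The shares of all tested rows were 6.51% above and 11.8% below.

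SRF and its MRTF cofactors answer to actin tension and share targets with YAP. All 14 genes of this list were tested, and 2 were higher and 12 lower in cKO, beside 55.8% lower over all tested rows. The median log2 fold change was -0.10, 0 genes had an adjusted p-value under 0.05, and the groups did not overlap in 3 genes, all with cKO below, against 11.8% of tested rows in that direction and 18.3% in either. *Mrtfa*, the actin-sensing cofactor of SRF, was at 15.59, 16.49 and 13.53 FPKM in control and 13.22, 11.19 and 12.98 FPKM in cKO libraries, a difference of -0.27 (SE 0.10, adjusted p = 0.338) without overlap. *Cnn1*, a smooth muscle calponin, had a difference of -0.33 (SE 0.16, adjusted p = 0.428) and *Tpm1*, a tropomyosin, one of -0.18 (adjusted p = 0.426).

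Receptors that CCN proteins bind were likewise divided, with 5 of 10 higher and 5 lower and a median of -0.02, which reached 0.00835 over the alternatives that kept all libraries. *Itga6*, the integrin α6 subunit, was at 1.61, 1.54 and 2.3 FPKM in control and 1.96, 3.78 and 3 FPKM in cKO libraries, a log2 fold change of 0.46 (SE 0.19, adjusted p = 0.372). It was the only gene of the list with an unadjusted p-value under 0.05, against 5.37% of all tested rows in that direction. *Lrp1*, an endocytic receptor of CCN2, had a difference of -0.18 (adjusted p = 0.591) and *Itgb5*, the integrin β5 subunit, one of -0.16 (adjusted p = 0.419). *Itgb5* was at 212.81 to 247.39 FPKM in control and 199.13 to 204.46 FPKM in cKO libraries, so that its groups did not overlap. Those of *Itgav* did not overlap either, at 30.94 to 33.18 FPKM in control and 27.99 to 30.93 FPKM in cKO libraries. Groups that separated with cKO below made up 11.8% of tested rows.

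**Figure D5:**
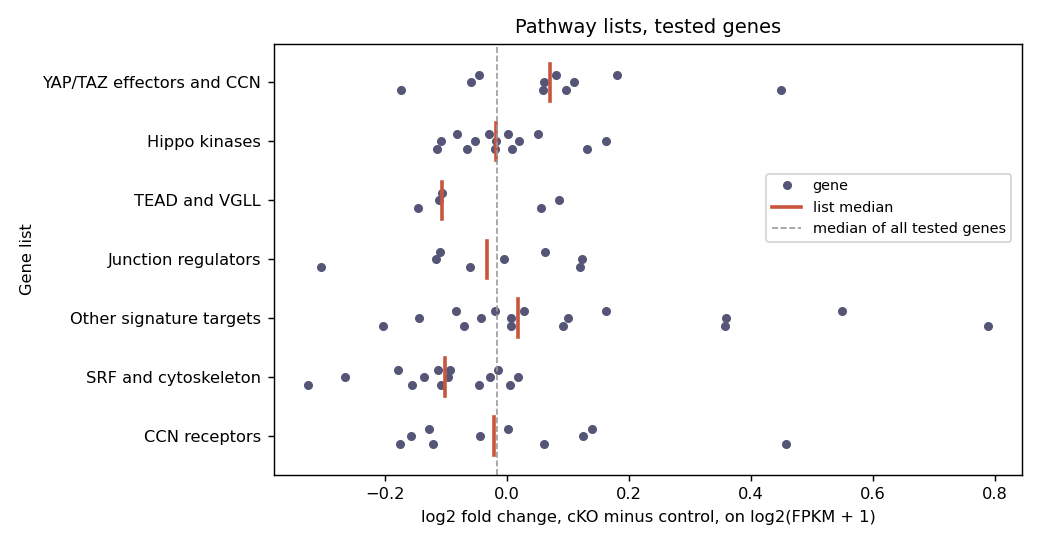
Log2 fold change, cKO minus control, of the tested genes in the set and in 6 pathway lists; each point is 1 gene, the red line the median of the list and the dashed line the median of all tested rows. List medians lie between -0.11 (TEAD and VGLL) and 0.07 (YAP/TAZ effectors and CCN), and *Gadd45a* at 0.79 is the farthest point.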

How the data were processed

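RNA of 3 control and 3 cKO libraries of calvarial preosteoblasts was compared, with groups and replicate numbers taken from the sample labels. The deposited values are FPKM per gene. The submitters' processing notes name HISAT2, DESeq and GRCm38. The program and annotation release behind the FPKM, and whether counting used strand, are not given in the sources used here. FPKM carry no read counts, so the depth of a library and the counting error of a value are unknown, and no count model was used.

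Rows were kept with FPKM of 1 or more in at least 3 libraries, transformed as log2(FPKM + 1), and tested across all 11590 kept rows with limma 3.58.1 in R 4.3.3 and Benjamini-Hochberg adjustment at 0.05. A fold change on this scale understates that of low genes. Single values were compared by exact permutation over libraries. The procedure was tested on simulated data. The table has 17001 rows, of which 25 carry a date in place of a symbol.

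The 10 genes and the lists were chosen with earlier results of these data known. The text names the 10 genes, *Ccn6*, *Nell2*, up to 3 tested genes of each pathway list with the largest absolute log2 fold change, and the 3 genes most correlated with *Ccn2*. Outside this rule, and with their values known, it also names *Taok2*, *Tead3*, *Tead4*, *Vgll1*, *Nt5e*, *Tgfb2*, *Itgav*, *Itgb1*, *Myof* and *Arhgef17* from the pathway lists. The same holds for marker genes of osteoblasts and other lineages, *Ddx3y* and genes whose exons overlap those of the set. Promoters came from RefSeq on GRCm38.p6 and gene positions from GENCODE M21. Alternatives were other pseudocounts, filters, scalings, a variance trend, a replicate block, a Y-linked covariate and leaving out each library.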

Additional observations from a re-analysis of the deposited data

How the results depend on the processing

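Of 15 alternatives, 6 left out a library. In each of them 0 of the 10 genes had an adjusted p-value under 0.05 (lowest 0.0946, for *Ankrd1* without cKO replicate 1). Over all tested rows that count was 0 with 6 libraries and 0 to 324 with a library left out, 2 without control replicate 3 and 324 without cKO replicate 1. With the replicate block it was 0 rows and 0 of the 10 genes. Replicate numbers gave no sign of pairing libraries, since deviations of same-numbered libraries correlated at 0.03, -0.17 and 0.21, and 2 of 3 controls and 1 of 3 cKO libraries correlated best with their own number. The pairing counts above and the counts of the 10 genes that follow were chosen after seeing the data. Of the 10 genes, 0 had an unadjusted p-value under 0.05 with 6 libraries, beside 1521 of 11590 rows. With the Y-linked covariate 1 had (*Ccn2*, log2 fold change 0.27, limma adjusted p = 0.455), beside 1219 rows. With a library left out 0 to 1 had (*Ankrd1*, without cKO replicate 1, beside 2461 rows). Groups did not overlap in 0 to 5 of the 10 genes with a library left out, beside 23.7% to 42% of tested rows. The highest of both came without cKO replicate 1. For *Ccn5* the difference ranged from -0.0747 to 0.301 on leaving out single libraries, for *Ccn3* from 0.03 to 0.83 and for *Ankrd1* from -0.43 to -0.0068. List medians moved as follows, with the cause not tested. TEAD and VGLL genes were at 0.0551 without a filter on low values and -0.158 to -0.0243 with a library left out. The Hippo kinase list was at 0.0102 with upper-quartile scaling, -0.00183 with quantile normalization and -0.0301 to 0.00121 with a library left out. The target signature was at 0.0478, 0.0315 and 0.00398 to 0.0617 in the same settings, and the junction list at -0.0582 to 0.0265 with a library left out. The median of all tested rows was 0.0108 with upper-quartile scaling and -0.0109 with quantile normalization, against -0.0177 as deposited.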

Other observations

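Some genes of the pathway lists, chosen after their values were seen, had the library pattern of *Ankrd1*, and others shared it in part. The share of all tested rows with this pattern was not counted. *Tgfb2*, a TGF-β ligand and member of the target signature, was at 14.6, 18 and 13.52 FPKM in control replicates 1, 2 and 3 and at 22.68, 13.3 and 12.44 FPKM in cKO replicates 1, 2 and 3. As for *Ankrd1*, control replicate 2 was the highest control, and cKO replicate 1 lay above and the other cKO libraries below every control. The same held for *Itgb1*, the integrin β1 subunit, over a narrower range. It was at 343.99, 348.21 and 331.54 FPKM in control and 354.74, 307.86 and 331.02 FPKM in cKO libraries. Of the several genes that shared the pattern in part, only *Cnn1* is described. *Cnn1* was at 92.6, 108.23 and 84.65 FPKM in control and 94.22, 62.46 and 72.34 FPKM in cKO libraries, with cKO replicates 2 and 3 below every control, as for *Ankrd1*, but with cKO replicate 1 below control replicate 2.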
